A study of Mus musculus with 20 samples.

Results

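Sec22b and the other SNARE genes of transport between the endoplasmic reticulum (ER) and the Golgi form a set of 10 genes among the 23284 genes of each library: Sec22b, Sec22a, Sec22c, Bet1, Bet1l, Ykt6, Gosr1, Gosr2, Bnip1 and Stx18. Sec22b was chosen because its ratio of immunoprecipitated (IP) RNA to input differed widely between the Tet2 and the Tet2dRBD lines, so its values in those lines and their difference are given here as a description, with no test. The other 9 genes were chosen by function, to see how the relatives and partners of Sec22b behaved in the same libraries. All 10 genes passed the filter on low counts.

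The libraries came from mouse embryonic stem cells (ESCs) in which CRISPR-Cas9 had added a Flag, HA and Twin-Strep tag to the C-terminus of an endogenous Tet protein, an enzyme that oxidizes 5-methylcytosine. In RNA immunoprecipitation (RIP), an anti-Flag antibody pulled the tagged protein and its bound RNA from a cytoplasmic extract, and total RNA served as input. The Tet1-KI line gave 2 IP and 2 input libraries. The Tet2-KI line gave 4 of each, and the Tet2dRBD-KI line, whose tagged Tet2 lacks its RNA-binding domain, gave 4 of each. All 3 lines carry the tag, the cells were otherwise wild type, and the lines were grown from picked clones whose number is not given, so a difference between lines cannot be told apart from a difference between clones. IgG control libraries were not analysed here, so the background of the antibody and beads was not measured in these comparisons.

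SNARE proteins sit on vesicles and on target membranes, and they zip together in bundles that pull the membranes into fusion. Sec22b is an R-SNARE of the ER that pairs with Stx5a, Gosr2 and Bet1 when vesicles travel forward to the Golgi, and with Stx18, Bnip1 and Use1 when they return to the ER. Ykt6 is a lipid-anchored R-SNARE of the same pathway, and Sec22a and Sec22c resemble Sec22b in their outer domain.

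The files held 21078995 to 37576638 expected counts per library (median 25517290). All 12 ESC markers had a mean of at least 1 TPM (a read share scaled to transcript length) in each group, with summed levels of 10324 to 19085 TPM per library. Of the 12 markers of differentiated or feeder cells, 7 or 8 reached a mean of 1 TPM in a group. Their summed input level was 46.2 to 48.0 TPM in Tet1, 60.4 to 94.55 in Tet2 and 85.6 to 143 in Tet2dRBD. In the IPs the sum was 42.4 to 43.6, 61.1 to 109 and 93.7 to 133 TPM. The ranges of Tet2 and Tet2dRBD overlapped in inputs and IPs, and the sums were not tested between lines. The part of these markers in the results was not tested. Numbers in the names of the deposited files put replicate 1, replicate 2, and replicates 3 and 4 of the Tet2 and Tet2dRBD lines into separate sets, with both Tet1 replicates beside replicates 3 and 4. What these sets stand for is not given in the sources used here. Replicates 3 and 4 were far more alike than any others of these lines (chi-square per gene between their counts 2.69 to 16.1, against 132 to 527), so n = 4 may overstate the number of separate samples, and counts that change when the 2 are merged are given with both values. The tagged genes were measured in all groups: Tet1 had 13.6 to 17.25 TPM in the Tet1 inputs, and Tet2 had 4.14 to 7.12 TPM in the Tet2 inputs and 2.49 to 9.21 in the Tet2dRBD inputs, values per gene that do not show the deleted domain.

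In the mm9 annotation (GENCODE), Sec22b lies at chr3:97705113-97727199 on the plus strand and has 5 exons in the transcript with the longest coding part. The study examined UC-rich motifs in its transcripts, so the longest unbroken run of C and T in such a transcript is shown for Sec22b, for Bet1 and Ykt6, whose ratios in the Tet2 line are described below, and for Bnip1, which holds the second longest run short enough to print. Capitals mark the run, lower case marks the bases beside it, and T stands for U.
Sec22b, 24 bases of the 3′ UTR, chr3:97726179-97726202, plus strand: tggTTTTCTTTTTTTTTTTTTTTTTTTatt
Bet1, 14 bases of the 5′ UTR, chr6:4036802-4036815, minus strand: cttgcccgCCTTTCCCTCTCCTggcaggat
Ykt6, 12 bases of the 3′ UTR, chr11:5867517-5867528, plus strand: ggggtgctgCCTCTTTCTCTTgttgctctg
Bnip1, 15 bases of the 3′ UTR, chr17:26929168-26929182, plus strand: aactggaCTTCCCCTCTCCCTCgggggct
The run of Sec22b was almost all T. Among annotated transcripts whose length lay within 20% of that of Sec22b, 7.75% held a run at least as long. The shares were 17.7% for Bnip1, 27.7% for Bet1 and 71.3% for Ykt6. Sec22c held a run of 401 bases, too long to print, a length held by 0.046% of transcripts of like length, its own included. C and T made up 52.4% of the Sec22b transcript, against a median of 49.5% over 20265 genes with a transcript. The length in the deposited files for Sec22b (1815 bases) was shorter than this transcript (2810 bases). No annotated protein-coding transcript of another gene matched 9 of the 10 at 95% identity or more, and Sec22c matched 62 bases of Rasl12. Other transcripts were not searched. Expected counts held fractions in 11 of 20 libraries for Sec22b, 14 for Bet1l, 19 for Ykt6 and 20 for Sec22c, and in 3 to 9 for the rest. The search therefore does not show that every read belonged to 1 gene alone.

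Sec22b was the second most abundant of the 10 transcripts in the inputs, and its level there varied little. Its mean was 50.6 ± 3.60 TPM (SD, n = 10 inputs of the 3 lines), and it ranged from 45.7 to 57.55. Ykt6 was highest, at 87.4 ± 22.3 TPM, and lay above Sec22b in 8 of 10 inputs. Gosr2, a SNARE of the early Golgi, had 40.8 ± 5.21 TPM and lay below Sec22b in 10 of 10. The order went on with Bet1l (31.2 TPM), Bnip1 (30.4) and Bet1 (23.4), and these were followed by Gosr1 (8.86), Stx18 (8.19), Sec22a (7.91) and Sec22c (6.56). The last 4 did not separate, since each lay above the next in only 5 or 6 of 10 inputs, and Bet1l lay above Bnip1 in 7 of 10. TPM is scaled to the transcript lengths of the deposited data, and the order of the genes rests on those lengths. For Sec22b (1815 against 2810 bases) and Stx18 (1562 against 3002) they were shorter than the annotated transcript with the longest coding part.

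**Figure D1:**
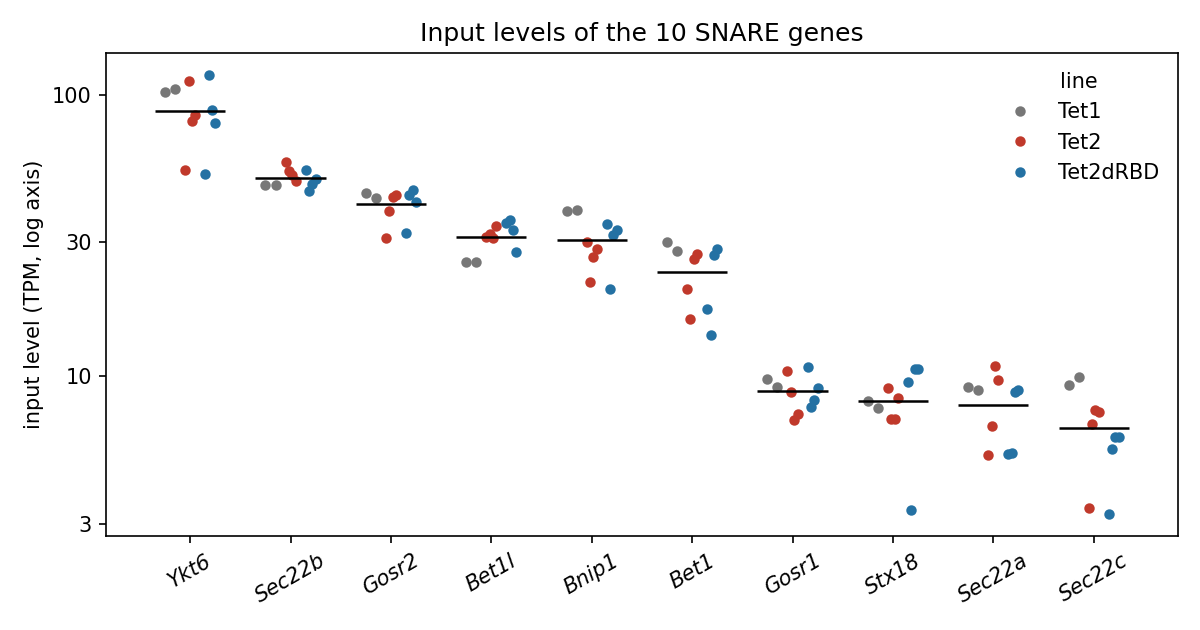
Input level in TPM (log axis) of each of the 10 genes. A point is an input library coloured by line, and a bar is the mean over 10 inputs. The points of Sec22b lie between 45.7 and 57.55 TPM, while those of Ykt6 run from 52.2 to 117.

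Several partners varied between the file sets far more than Sec22b did. Ykt6 had 53.8 and 52.2 TPM in the replicate 1 inputs of Tet2 and Tet2dRBD, and 112 and 117 in those of replicate 2. Sec22c had 3.42 and 3.25 TPM in the replicate 1 inputs, and 5.52 to 9.93 in all others. At the same number the 2 lines had like values of both genes. Stx18 varied more between the lines, with 7.07 TPM in the Tet2 input and 3.36 in the Tet2dRBD input of replicate 2. Tet2dRBD had the higher Stx18 input at replicates 1 (9.12 and 9.58), 3 (7.08 and 10.65) and 4 (8.41 and 10.66).

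The question for the inputs was whether removal of the RNA-binding domain went with another level of these transcripts in the cells. Of the 10 genes, 0 differed between the Tet2 and the Tet2dRBD inputs (quasi-likelihood test of edgeR, Benjamini-Hochberg adjusted). The background was 0.0% of 13178 genes tested, with 248 genes at an unadjusted p under 0.05 and 9 genes called by DESeq2, none of them among the 10. For Sec22b, which had been chosen on IP and input together, the levels were 57.55, 53.4, 51.75 and 49.2 TPM in Tet2 against 54, 45.7, 48.2 and 50.4 in Tet2dRBD. These ranges overlapped, and the ratio of the lines at replicates 1 to 4 was 1.07, 1.17, 1.07 and 0.977. For the other 9, the log2 difference lay between -0.16 (Bnip1, SE 0.27) and 0.27 (Sec22c, SE 0.31). This fit had no block for the replicate number, although same-numbered inputs of these lines varied together, and its errors were wider for that. With the block, 0 of the 10 and 5 of all genes were called, and 1648 genes had an unadjusted p under 0.05. Bnip1 then had -0.15 (SE 0.11) and Sec22c 0.25 (SE 0.11).

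In the IP libraries Sec22b stood apart from the rest of the set. It reached 337, 177, 147 and 154 TPM in the 4 Tet2 IPs, 52.1, 41.8, 38.45 and 40.6 in the 4 Tet2dRBD IPs, and 62.7 and 51.7 in the 2 Tet1 IPs. Every Tet2 IP lay above every other library of the series, and the Tet2 IP was 6.47, 4.23, 3.81 and 3.79 times the Tet2dRBD IP at replicates 1 to 4. Replicate 1 was the highest of the Tet2 IPs by far, and the other 3 lay close together.

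**Figure D2:**
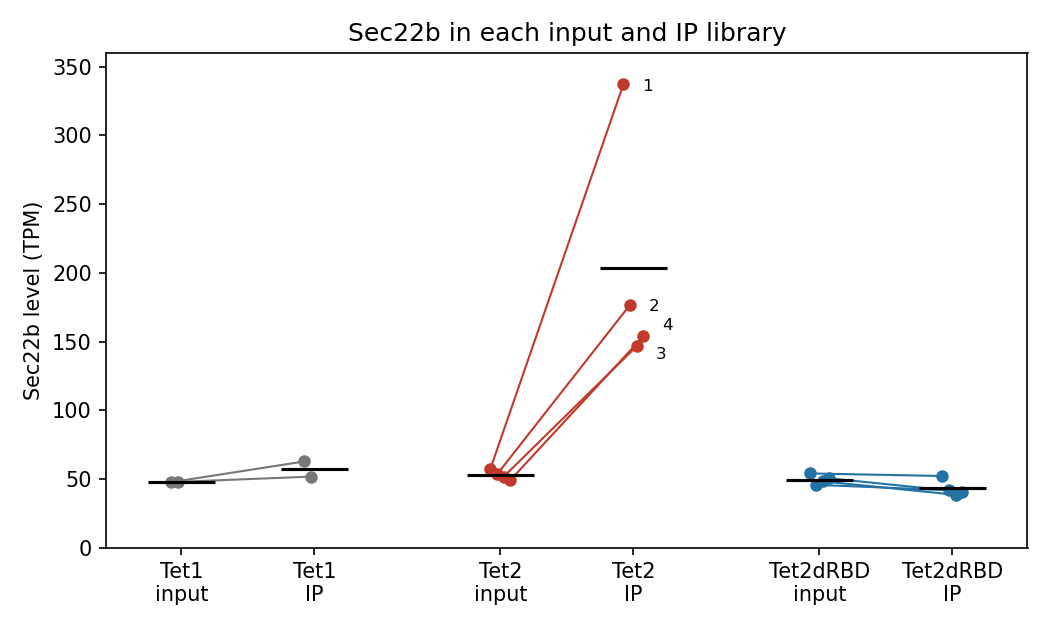
Sec22b level in TPM in each library, with the input and the IP of a pair joined by a line, bars at group means, and Tet2 replicate numbers beside their points. The 4 Tet2 IPs sit between 147 and 337 TPM, above all inputs, while the Tet2dRBD IPs sit between 38.45 and 52.1.

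As log2(IP/input) of TPM + 1, Sec22b had 1.84 ± 0.47 in Tet2 (SD, n = 4 pairs, range 1.48 to 2.53). In Tet2dRBD the mean was -0.20 ± 0.13, with all 4 pairs from -0.32 to -0.05, and in Tet1 the 2 pairs gave 0.39 and 0.11. The Tet2 and the Tet2dRBD pairs did not overlap, as the choice of Sec22b required. The difference between those lines was 2.58, 1.83, 1.80 and 1.93 at replicates 1 to 4, with a mean of 2.04 ± 0.37 (SD, n = 4). It was 2.58 in the first file set, 1.83 in the second and 1.80 and 1.93 in the third. Of 13710 genes tested, 1 had a higher mean difference.

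**Figure D3:**
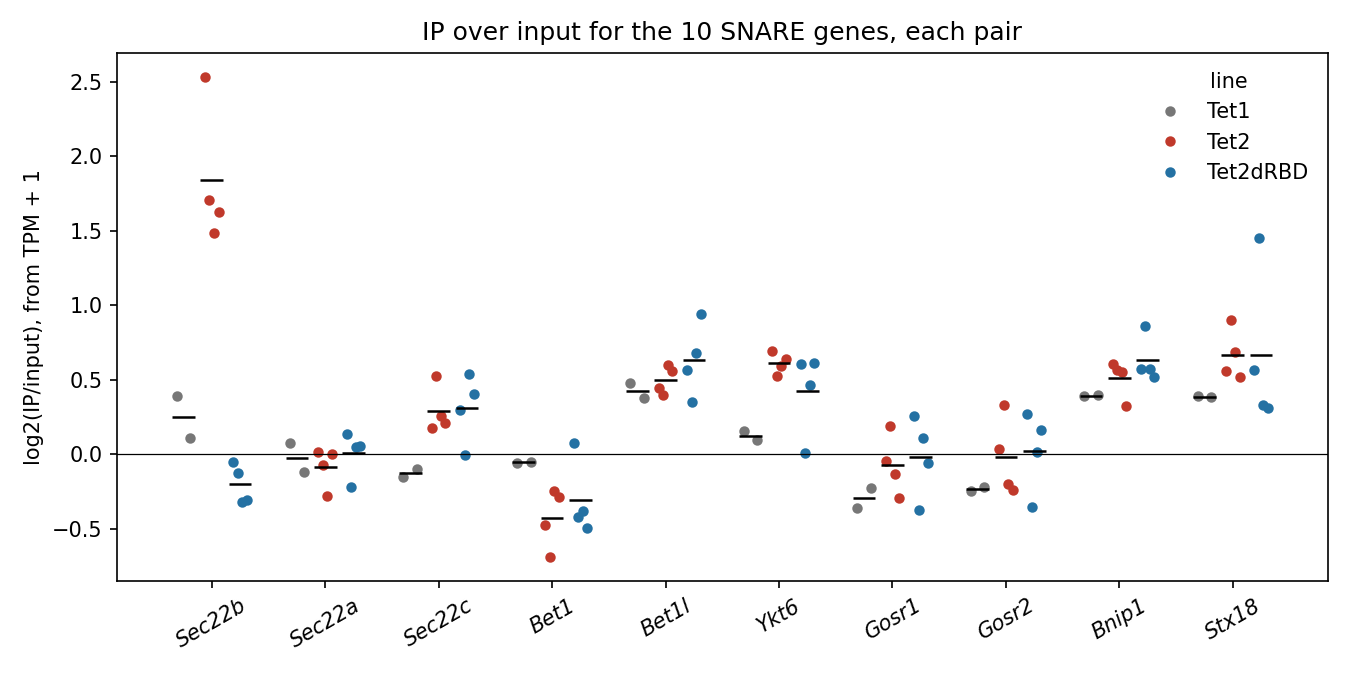
log2(IP/input) from TPM + 1 for each of the 10 genes. A point is an IP and input pair coloured by line, and a bar is the mean of the line. Sec22b in Tet2 lies at 1.48 and above, while every other gene in every line lies between -0.69 and 1.45.

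None of the other 9 genes showed a like difference. Their mean Tet2 minus Tet2dRBD differences ran from -0.13 (Bet1l) to 0.19 (Ykt6), with a median of -0.05, beside a median of 0.03 and a 5th to 95th percentile of -0.27 to 0.38 over all tested genes. The pairs of the lines overlapped for 9 of 9, where 2.41% of all genes tested had pairs without overlap, 1.3% with Tet2 above and 1.11% with Tet2 below. Tested with edgeR across all genes, 0 of the 9 differed, against a background of 0.0219% (3 of 13710 genes). None of the 9 had an unadjusted p under 0.05, and DESeq2 and limma called 0 of them. Adjusted p was 1 for each, and the fitted difference lay between -0.18 (Bet1l, SE 0.17) and 0.15 (Ykt6, SE 0.15).

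The closest relatives of Sec22b kept near 0. For Sec22a, an ER protein of the same family, the difference was -0.12, 0.15, -0.32 and -0.05 at replicates 1 to 4. For Sec22c it was -0.12, 0.53, -0.28 and -0.20. Both genes thus took both signs, and each had its highest value at replicate 2. At replicate 2 the median log2(IP/input) over genes with a mean input of at least 1 TPM was 0.38 in Tet2 and 0.01 in Tet2dRBD. These medians lay closer at the other numbers (0.24 and 0.26, 0.19 and 0.25, 0.12 and 0.18). Less the medians, Sec22a at replicate 2 had -0.45 in Tet2 and -0.23 in Tet2dRBD, and Sec22c had 0.14 and -0.02. Ykt6 was above 0 at all 4 numbers, with 0.09, 0.51, 0.13 and 0.03, all of them below the lowest value of Sec22b. Less the medians, Ykt6 at replicate 2 had 0.14 in Tet2 and -0.005 in Tet2dRBD.

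**Figure D4:**
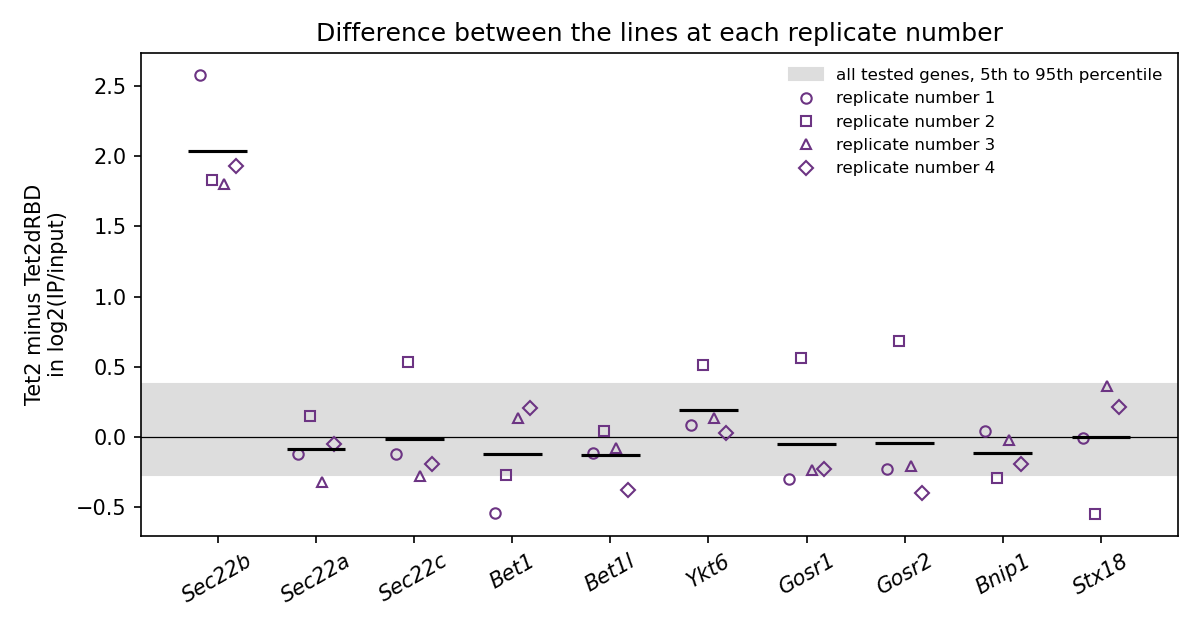
Tet2 minus Tet2dRBD difference in log2(IP/input) for each gene, with a symbol for each of the 4 replicate numbers and a bar at the mean. The grey band spans the 5th to 95th percentile of the mean over all tested genes, -0.27 to 0.38. Sec22b lies at 1.80 and above, and the bars of the other 9 genes lie inside the band.

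The genes other than Sec22b were next compared with input within each line, with an edgeR fit of all 20 libraries in which the pairs were blocks. In the Tet2 line, 5 of 9 passed at an adjusted p under 0.05, with 1 higher and 4 lower. The background was 33.1% of all genes tested, 14.6% higher and 18.5% lower. With replicates 3 and 4 merged, 2 of 9 passed, Bet1 and Sec22a, both lower. The background then was 3191 of 13610 genes tested, 1264 higher and 1927 lower. edgeR scales the counts so that most genes stay near 0 (median log2 ratio 0.0032 in Tet2), while ratios of TPM + 1 had a median of 0.23. With limma on log2(TPM + 1), the split was 5 higher and 1 lower, beside 34.8% higher and 8.21% lower over all genes. Bet1 (lower) and Ykt6 (higher) were called by both.

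Bet1, a SNARE that forms the forward fusion bundle with Sec22b, was lower in the IP than in the input of each Tet2 pair. Its IP levels were 14.4, 9.56, 21.7 and 22.0 TPM, beside inputs of 20.4, 16.04, 26.02 and 27.1. The ranges of IP and input overlapped across pairs, but within a pair the IP was always the lower. The fitted log2 ratio was -0.77 (SE 0.14, adjusted p = 0.00265 by edgeR). In Tet2dRBD it was -0.60 (SE 0.14, adjusted p = 0.0151 by edgeR), with 1 of 4 pairs above input, and that call was lost without Tet2dRBD replicate 3, with replicates 3 and 4 merged, with the Tet2dRBD libraries alone, with no replicate block and with limma on log2(TPM + 1). In Tet1 it was -0.21 (SE 0.19, adjusted p = 0.576 by edgeR).

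On the TPM scale Ykt6 was higher in the IP in every pair, though only by 118.15 over 117.46 TPM in Tet2dRBD replicate 2. By edgeR its fitted log2 ratio was 0.15 (SE 0.10, adjusted p = 0.322) in Tet2dRBD and -0.02 (SE 0.15, adjusted p = 0.949) in Tet1. With limma on log2(TPM + 1) it was called higher in Tet2dRBD (adjusted p = 0.0197) and was not called in Tet1. In Tet2 the IP held 87.7, 161, 122 and 132 TPM over inputs of 53.8, 112, 80.7 and 84.4. The fitted log2 ratio was 0.30 (SE 0.10, adjusted p = 0.0453 by edgeR). This call held without Tet2 replicate 2 or Tet2dRBD replicate 2 and was lost without any other pair, with replicates 3 and 4 merged, with no filter on low counts, with no replicate block and with the Tet2 libraries alone.

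The SNAREs of the Golgi and Sec22a made up the rest of the Tet2 calls. Gosr1, a Golgi SNARE, had a fitted log2 ratio of -0.40 (SE 0.10, adjusted p = 0.0116 by edgeR), Sec22a had -0.41 (SE 0.11, adjusted p = 0.0142) and Gosr2 had -0.34 (SE 0.10, adjusted p = 0.0204). Their size depended on the scale, since ratios of TPM + 1 had means of -0.07, -0.08 and -0.02, with 1, 2 and 2 of 4 pairs above input. These 3 calls were lost with limma on log2(TPM + 1), and all 3 without Tet2 replicate 1. Gosr2 was lost also without Tet2 replicate 3 or 4, and Sec22a without Tet2 replicate 2 or 3.

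The genes of the return route to the ER, Bnip1 and Stx18, and Bet1l, a SNARE within the Golgi, lay above input in all 10 pairs of the 3 lines on the TPM scale, as did Ykt6. Bet1l had IP levels of 42.9, 42.4, 47.5 and 50.9 TPM in Tet2 over inputs of 31.2, 32.0, 31.05 and 34.2, and 52.35, 46.3, 53.6 and 54.2 in Tet2dRBD over 35.2, 36.0, 33.1 and 27.75. Bnip1, the ER SNARE also known as Sec20, had 46.1, 32.4, 39.25 and 35.6 TPM in the Tet2 IP over 29.9, 21.6, 26.45 and 28.3. IP and input levels did not overlap for Bet1l, Bnip1 or Stx18 in the Tet2 line or in the Tet2dRBD line. The share of all tested genes without such overlap was not counted, nor was the share above input in all 10 pairs. Both statements are therefore description only. Taken line by line, 46.5% of all tested genes lay above input in every pair in Tet2, 31.8% in Tet2dRBD and 50.9% in Tet1.

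In the Tet2dRBD line, 3 of 9 genes passed, with Bet1l and Bnip1 higher and Bet1 lower (background 19.5%, with 7.4% higher and 12.1% lower). The fitted log2 ratios were 0.37 for Bet1l (SE 0.12, adjusted p = 0.0478 by edgeR) and 0.37 for Bnip1 (SE 0.12, adjusted p = 0.0453 by edgeR). In Tet2 the same ratios were 0.19 (adjusted p = 0.222) and 0.21 (adjusted p = 0.18), and the difference between lines did not pass for either. With limma on log2(TPM + 1), 4 were higher and 0 lower in Tet2dRBD, beside 23.3% and 4.55% over all genes. Both upward calls held without Tet2 replicate 1 or 2 and were lost without any other pair. With replicates 3 and 4 merged, 0 of the 9 passed, beside 1060 of 13610 genes tested.

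In the Tet1 line, 0 of 10 genes passed (background 5.9%, with 2.72% higher and 3.18% lower, by edgeR). Gosr1 and Gosr2 had an unadjusted p under 0.05, and DESeq2 called Gosr1. Sec22b itself had a fitted log2 ratio of 0.11 (SE 0.22, adjusted p = 0.818 by edgeR), from IP levels of 62.7 and 51.7 TPM over inputs of 47.7 and 47.8. Both IPs lay above both inputs. The largest fitted ratios were -0.48 for Gosr1 (SE 0.14, adjusted p = 0.0723) and -0.39 for Gosr2 (SE 0.13, adjusted p = 0.111). With 2 pairs, this line gives the widest errors of the 3.

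Counted by sign alone on the TPM scale, 6 genes lay above input in every Tet2 pair (background 46.5%), 4 in every Tet2dRBD pair (31.8%) and 5 in every Tet1 pair (50.9%). Bet1l, Ykt6, Bnip1 and Stx18 were in all 3 groups. Sec22b was in the Tet1 and Tet2 groups and Sec22c in the Tet2 group. Below input in every pair were Bet1 in Tet2 (background 11.9%), Sec22b in Tet2dRBD (8.56%), and Sec22c, Bet1, Gosr1 and Gosr2 in Tet1 (30.1%). Sec22b was the 1 gene of the 10 above input in every Tet2 pair and below it in every Tet2dRBD pair, a pattern of 12 genes or 0.0875% of those tested. It was chosen for its difference between these lines. Its pattern, this share and its place in the Tet2 and Tet2dRBD counts are therefore description only.

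The wider secretory pathway was described with 6 lists of 115 genes, of which 107 were tested. For the Tet2 minus Tet2dRBD difference, 0 of the 107 passed by edgeR, DESeq2 or limma, and 4 had an unadjusted p under 0.05 by edgeR. Mean differences ran from -0.31 to 1.15, with a median of 0.03, all below the 2.04 of Sec22b. On the scale of edgeR's ratios, 12 of 23 cargo receptors were lower and 1 higher in the Tet2 IP, with a list median of -0.34 against 0.0032 for all genes. Over all genes tested, 18.5% were lower and 14.6% higher, and each list count is to be read against these shares. For COPII coat genes the counts were 6 lower and 1 higher of 15, for COPI coat genes 2 and 3 of 14, for tethers 4 and 7 of 24, for direct SNARE partners and regulators 2 and 2 of 11, and for post-Golgi and endosomal SNAREs 3 and 1 of 20. The split depended on the scale: over the 6 lists edgeR called 29 lower and 15 higher, and limma on log2(TPM + 1) called 10 lower and 38 higher. As shares of the 107 genes, edgeR's calls were 27.1% lower and 14.0% higher, and limma's 9.35% and 35.5%, beside 8.21% and 34.8% over all genes by limma. For cargo receptors limma called 5 lower and 5 higher.

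**Figure D5:**
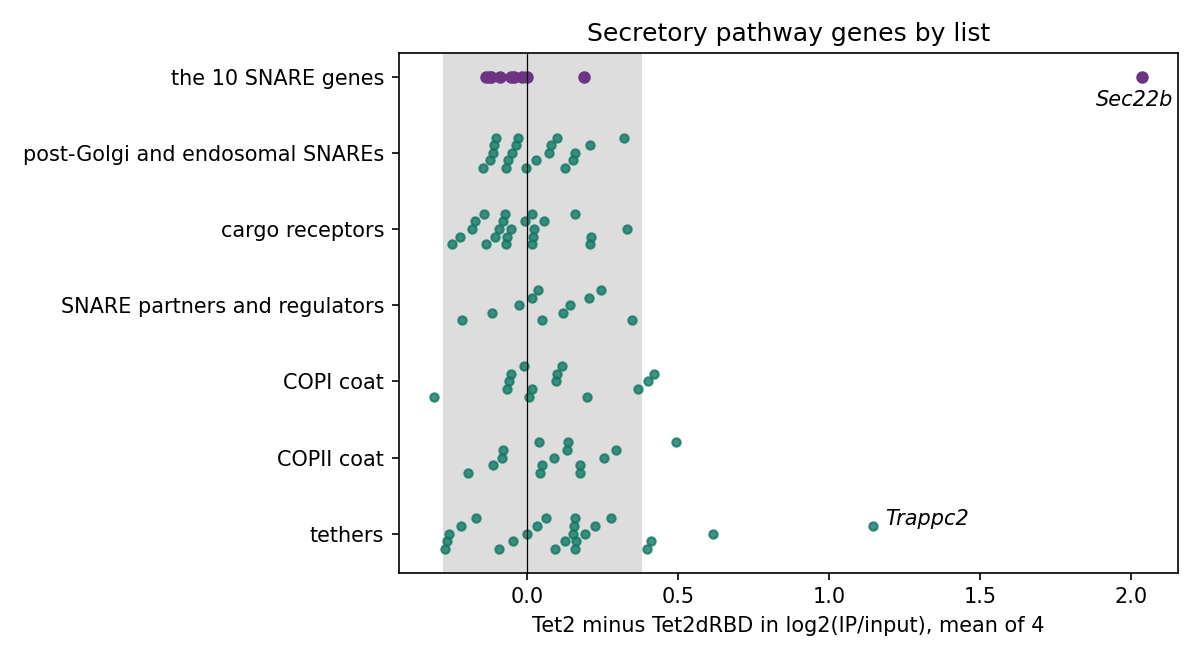
Mean Tet2 minus Tet2dRBD difference in log2(IP/input) for 107 genes of 6 secretory pathway lists and for the 10 SNARE genes. A point is a gene, points are spread vertically for sight alone, and the grey band spans the 5th to 95th percentile of all tested genes. Sec22b lies at 2.04 and the next highest point is Trappc2 at 1.15.

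Among SNARE partners, Stx5a, the syntaxin that pairs with Sec22b at the Golgi, had 24.0 ± 4.10 TPM in the Tet2 IP and 24.6 ± 5.31 in the input (SD, n = 4). Its fitted log2 ratio was -0.34 (adjusted p = 0.0304 by edgeR), and its difference between lines, -0.21 ± 0.11, was the lowest of its list. With limma on log2(TPM + 1) Stx5a was not called. Scfd1, the Sec1-like protein that acts on syntaxin 5, had the highest Tet2 ratio of the list, 1.62 (SE 0.45, adjusted p = 0.0185). It was higher in Tet2dRBD (1.64, adjusted p = 0.029) and Tet1 (2.68, adjusted p = 0.0377) as well, by the same edgeR fit. Vti1b, an endosomal SNARE, had the highest difference of the list, 0.35 ± 0.43, and Napb, a SNAP that helps to take SNARE bundles apart, had the second highest, 0.25 ± 0.25.

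The gene nearest to Sec22b in the pathway lists was Trappc2, a subunit of the TRAPP tethering complex. It had 41.5, 14.8, 27.6 and 30.7 TPM in the Tet2 IPs over inputs of 13.5, 9.49, 20.98 and 21.8, and 8.01, 6.12, 14.9 and 15.8 TPM in the Tet2dRBD IPs over 12.3, 7.14, 22.9 and 18.8. The Tet2 IP thus lay above its input in each pair and the Tet2dRBD IP below it. Its difference was 1.15 ± 0.66 (range 0.71 to 2.12), and its test did not pass (adjusted p = 0.493 by edgeR). Against input, edgeR called it lower in Tet2dRBD (log2 -0.71, SE 0.20, adjusted p = 0.031) and did not call it in Tet2 (0.47, adjusted p = 0.0833). With limma on log2(TPM + 1) it was called in Tet2 and not in Tet2dRBD. Rint1, a part of the tether that works with Stx18, had the next highest difference, 0.62 ± 0.21. It was higher than input in Tet2 (log2 1.25, SE 0.19, adjusted p = 0.00115 by edgeR). Trappc8 had the highest Tet2 ratio among tethers (1.69, SE 0.34, adjusted p = 0.00452) and Trappc2l the lowest difference (-0.27 ± 0.33). The Tet2 pairs all lay above the Tet2dRBD pairs for 3 of the 107 pathway genes (Trappc2, Scfd2 and Copg), beside 1.3% of all genes tested. They all lay below for 1 (Trappc5), beside 1.11%.

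In the coats and receptors the differences between lines were small beside that of Sec22b. The highest and second highest in each of these lists were Mia3, a cargo receptor at ER exit sites (0.49 ± 0.99), Sec16a, their scaffold (0.30 ± 0.62), Copg, a COPI subunit (0.42 ± 0.26), Gbf1, which activates Arf1 (0.40 ± 0.74), and among cargo receptors Mcfd2 (0.33 ± 0.16) and Bcap29 (0.21 ± 0.40). Sar1b, the GTPase that starts COPII assembly, was lower in the Tet2 IP by a log2 ratio of -1.34 (SE 0.14, adjusted p = 0.00015 by edgeR) and in Tet2dRBD by -1.09 (adjusted p = 0.00085). Tmed5, a receptor of the p24 family, was higher in all 3 lines, at 2.11 (SE 0.31, adjusted p = 0.00084) in Tet2, 2.17 (adjusted p = 0.00148) in Tet2dRBD and 2.74 (adjusted p = 0.0186) in Tet1 by the same fit. Its input level was low, at 0.755 ± 0.276 TPM in Tet2.
At the low end lay Copb2 (-0.31 ± 0.34), Cnih4 (-0.25 ± 0.20) and, among post-Golgi SNAREs, Stx7 (-0.15 ± 0.36).

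The genes whose log2(IP/input) followed that of Sec22b most closely over the 10 pairs lay outside these lists. Among 8466 genes with a mean input of at least 5 TPM, the highest Pearson r were those of Cyb5r3 (0.99), Ap4b1 (0.97), Maea (0.97), Atp6v1e1 (0.96) and Tbrg1 (0.96). The 10 points share lines, file sets and scaling, and genes were ranked after the fact, so these values describe and test nothing. Cyb5r3, a reductase of the ER and mitochondrial surface, had 711, 518, 343 and 356 TPM in the Tet2 IPs over inputs of 187, 214, 168 and 172, and 119 to 161 in the Tet2dRBD IPs. Like Sec22b, it was high in each Tet2 IP and highest at replicate 1. The other 9 SNARE genes had r from -0.36 (Bet1) to 0.50 (Ykt6).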

How the data were processed

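RIP and input RNA of 20 libraries was sequenced. Per the submitters' processing notes and the study's methods, the authors inspected reads with FastQC, removed low-complexity reads (AfterQC) and rRNA and tRNA reads (Bowtie2), trimmed adapters (Trimmomatic) and quantified genes with RSEM on mm9; versions are not given in the sources used here. The deposited files hold the expected count per gene, the effective length, and TPM to which the authors had added a pseudocount of 1. That 1 was subtracted for levels and kept for log2 ratios. Libraries were grouped by their titles, and values are per replicate.

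Expected counts were rounded, filtered (at least 1 CPM in 2 libraries or more), scaled by TMM and fitted with edgeR 4.0.16 in R 4.3.3, blocking on pairs, with 1 IP term per line, over all 20 libraries (7 residual degrees of freedom). Tet2 and Tet2dRBD inputs were fitted apart, without the block. Benjamini-Hochberg adjustment ran over all genes tested, at a threshold of 0.05. Numbers paired the libraries: same-numbered IP and input libraries deviated together (r 0.575 to 0.854 in Tet2 and Tet2dRBD, 0.189 in Tet1), and so did inputs of the Tet2 and Tet2dRBD lines (0.686 to 0.885). Numbers 3 and 4 were not separated by this (IP 4 with input 3 had r 0.775 in Tet2 and 0.681 in Tet2dRBD). Replicates 3 and 4 differed beyond counting noise and were kept apart, which does not show that they are separate cultures, and merging them was an alternative. The study calls its RIP-Seq replicates biological, at least in duplicate, but the labels do not say which came from separate cultures, so p-values measure the spread between these samples, which may be technical.

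DESeq2 1.42.0, limma 3.58.1 on log2(TPM + 1) or log2(TPM + 0.1), no filter, no replicate block, single-line fits, merged replicates 3 and 4, and leaving out each pair were the alternatives. Scripts were tested on simulated data. The SNARE genes and the pathway lists were chosen with earlier results of these data known. Named pathway genes were, per list, the 2 highest and the lowest difference and the highest Tet2 ratio, and likeness genes the 5 highest correlations. An item that this rule would name is not reported here. Transcripts were compared with BLAST+ 2.17.0. Counts of reads without molecular identifiers are not counts of independent molecules.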

Additional observations from a re-analysis of the deposited data

Results flagged for a closer look

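In groups of 4 libraries or pairs, 6 values lay far from the other 3. Chance alone would give about 3.5 among the 70 groups examined if all values were independent. Replicates 3 and 4 were far more alike than the others and the groups share libraries, so that figure does not apply here. Sec22b had 337 TPM in the Tet2 IP of replicate 1, against 147 to 177 in the others, and its Tet2 minus Tet2dRBD difference at replicate 1 was 2.58, against 1.80 to 1.93. Ykt6 had 80.04 TPM in the Tet2dRBD IP of replicate 1, where the others had 118 to 122. The Gosr1 difference was 0.56 at replicate 2 and below 0 elsewhere. At that number the median log2(IP/input) over expressed genes was also higher in Tet2 (0.38) than in Tet2dRBD (0.01). The log2(IP/input) of Bnip1 in Tet2dRBD was 0.86 at replicate 2, and Stx18 had 3.36 TPM in the Tet2dRBD input of replicate 2, against 9.58 to 10.7.

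In 3 cases every pair of a line lay above input and every pair of another line below it. Sec22b had a mean log2(IP/input) of 1.84 in Tet2 and of 0.25 in Tet1, against -0.20 in Tet2dRBD. Sec22c had -0.13 in Tet1 and 0.29 in Tet2. These differences in sign were not tested. Tet1 had only 2 pairs, and 50.9% of all tested genes lay above input in both and 30.1% below in both. Opposite signs over all genes were counted only for Tet2 above and Tet2dRBD below (0.0875%). Sec22b was chosen on its values in those lines.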

How the results depend on the processing

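The Sec22b difference from TPM + 1 stayed between 1.86 and 2.12 under its alternatives, the fitted one between 1.81 (edgeR, without Tet2 replicate 1) and 2.11, and the median of the other 9 between -0.17 and 0.02. The count of SNARE genes called in the Tet2 IP (5 of 9) was 3 with no filter on low counts, 2 with replicates 3 and 4 merged, and 1 to 7 with a pair left out (1 without Tet2 replicate 1, 2 without Tet2 replicate 3, 3 without Tet2 replicate 4). In Tet2dRBD (3 of 9) it was 1 with no filter, 0 with the compared line only or replicates 3 and 4 merged, and 0 to 3 with a pair left out (0 without Tet2dRBD replicate 3, and 1 without either Tet1 pair, Tet2 replicate 3 or 4, or Tet2dRBD replicate 1, 2 or 4). In Tet1 (0 of 10) it was 1 with DESeq2, 6 with the compared line only, and 0 to 1 with a pair left out (Gosr1, without Tet2dRBD replicate 2). With no replicate block, 0 genes were called in either Tet2 or Tet2dRBD. The replicate block for the inputs called 0 of the 10 SNARE genes and 5 of all genes. The count above input in every Tet2 pair fell from 6 to 1, Sec22b, at 1.5 times input. The causes were not tested.

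Calls over all genes moved as well. In Tet2 they were 4540, and 375 with no replicate block and 3191 with replicates 3 and 4 merged. They were 2690 (without Tet2 replicate 1) to 5376 with a pair left out. In Tet2dRBD they were 2674, and 46 with no replicate block, 748 with the compared line only, 1060 with replicates 3 and 4 merged and 795 to 3419 with a pair left out. In Tet1 they were 809, and 0 with no replicate block, 316 with replicates 3 and 4 merged and 1578 with DESeq2. They were 6985 with the compared line only and 321 to 1505 with a Tet2 or Tet2dRBD pair left out. For the difference they were 3, and 29 with DESeq2, 6 with no filter, 0 with no replicate block, the compared lines only or replicates 3 and 4 merged, and 0 to 14 with a pair left out. Of 616 single-gene values under alternatives, 62 lost and 22 gained a call, 28 changed sign where neither value passed, and 0 reversed. Bet1 was called lower in Tet2 under each alternative except no replicate block, where its log2 ratio was -0.68 (adjusted p = 0.282 by edgeR) against -0.77.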
